A study of Mus musculus with 3 samples.

Results

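The nuclear-encoded subunits of oxidative phosphorylation were followed in cells sorted from mouse embryonic digits while the digit joints form. Members were taken by symbol, as every gene named as a subunit of complexes I to V in the Nduf, Sdh, Uqcr, Cox and Atp5 series, and 84 of the 23284 listed genes met that rule. Complex I had 36 members, complex II 4, complex III 8, complex IV 19 and complex V 17. Of the 84, 73 are the forms that most tissues use, called ubiquitous subunits here, and 7 are tissue isoforms of complex IV (Cox4i2, Cox6a2, Cox6b2, Cox7a1, Cox7b2, Cox8b and Cox8c). The symbols also took in 4 genes that are not subunits: Cox4nb (Emc8, of a membrane protein insertion complex), Cox7a2l, Atp5s and Atp5sl.

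RNA-seq libraries were made from 3 cell populations of the strain given as C57/bl6, with 1 library each. Sox9+ cells came from digits at stage E13.5 (embryonic day) of embryos with the Sox9-eGFP/+ genotype, and the labels do not say from which limb. Lgr5+ cells, labelled interzone, and Lgr5- cells, labelled non-interzone, came from forelimb digits at stage E14.5 of embryos with the Lgr5-eGFPCreERT2/+ genotype. The sort was by GFP, so the Lgr5- cells can include interzone cells in which the reporter was silent, and the number of embryos pooled was not given in the sources used here. Day, reporter allele and sorted population differ together between the Sox9+ library and the other two, so they cannot be told apart.

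Oxidative phosphorylation moves electrons from NADH (at complex I) and succinate (at complex II) through complex III and cytochrome c to oxygen at complex IV, and complex V uses the proton gradient this builds to make ATP. Most subunits are encoded in the nucleus and are imported into mitochondria, where they are assembled with a few subunits that mitochondrial DNA encodes. Developing cartilage has no blood vessels, and its chondrocytes are known for heavy use of glycolysis.

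Levels were given as FPKM, which divides fragment numbers by transcript length and library size, so they can be compared between genes. The files held no read counts, and with 1 library per group no test or error could be computed: each difference is between libraries, not conditions. Levels are given in the order Sox9+, Lgr5+, Lgr5-. Lgr5 followed the labels, at 3.48, 26.8 and 1.36 FPKM. Sox9, at 255, 332 and 147 FPKM, was highest in the Lgr5+ library and not in the one sorted as Sox9+, and the joint marker Gdf5 stood at 59.9, 615 and 71.7 FPKM. The cartilage matrix gene Col2a1 stood at 5304, 2253 and 1401 FPKM, so it was present in all 3 libraries. Markers of other cells differed: 14 muscle markers summed to 37.7, 125 and 35.4 FPKM, 9 red cell markers to 141, 150.3 and 3977 FPKM, 6 macrophage markers to 10.9, 79.3 and 41.9 FPKM, and 6 epidermis markers to 19.5, 41.5 and 13.1 FPKM. Of the red cell markers, Epb4.2 was listed at 0 in the Sox9+ and Lgr5+ libraries and Hbb-bh1 in the Lgr5+ library, and no muscle, macrophage, epidermis or endothelium marker was listed at 0. The ribosomal RNA precursor Rn45s took 6.43, 1.86 and 6.13% of the summed FPKM. In bulk samples, fewer cells of a type and less RNA per cell cannot be told apart.

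The ubiquitous subunits were abundant in every library. Their median level was 194, 205 and 203 FPKM, against 10.8, 11.3 and 10.6 FPKM for all genes listed at 1 FPKM or higher. Among Sox9+ cells 67 of the 73 stood at 50 FPKM or more, and in each of the Lgr5 libraries 68 did, against 13.3 to 14.9% of all genes at 1 FPKM or more. All 84 members together took 2.78, 3.25 and 3.18% of the summed FPKM. Low ubiquitous subunits were the same genes throughout: Cox7b, Ndufa11, Ndufs1, Ndufs4 and Ndufv2 stood under 50 FPKM in all 3 libraries, and Sdhc did so in the Sox9+ library alone.

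Complex I, the NADH dehydrogenase, held 30.5, 32.1 and 31.8% of the members' summed FPKM. Its highest subunits were the accessory subunits Ndufa3, at 322, 336 and 353 FPKM, and Ndufa6, at 322, 329 and 345 FPKM, and its lowest on the mean of the libraries was Ndufs4, at 24.2, 25.7 and 25.4 FPKM. The 7 core subunits, which carry the flavin and iron-sulfur clusters, had a lower median level (74.3, 81.4 and 74.5 FPKM) than the 29 accessory subunits (155, 171 and 171 FPKM). The core subunit Ndufs1, which carries iron-sulfur clusters, stood at 28.4, 27.3 and 27.8 FPKM. Ndufa4, at 244, 243 and 251 FPKM, is counted here by its name, although the protein is now placed in complex IV.

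Complex II, succinate dehydrogenase, was the lowest of the 5 complexes, with a median subunit at 70.9, 68.4 and 70.5 FPKM. The iron-sulfur subunit Sdhb stood at 142, 184 and 169.7 FPKM and the flavoprotein Sdha, which oxidises succinate, at 51.1, 59.9 and 59.1 FPKM. The membrane anchors Sdhc and Sdhd stood at 45.1, 53.0 and 66.9 FPKM and 90.7, 76.9 and 74.1 FPKM. The anchors had opposite orders, with Sdhc lowest and Sdhd highest in the Sox9+ library.

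In complex III, the cytochrome bc1 complex, the small subunits Uqcr10 (300.5, 339.9 and 289.8 FPKM) and Uqcrq (284, 322 and 262 FPKM) were highest on average. The core proteins Uqcrc1 and Uqcrc2, which build the matrix side of the complex, stood far apart, Uqcrc1 at 187, 293 and 260.3 FPKM and Uqcrc2 at 75.4, 74.7 and 82.8 FPKM. The Rieske iron-sulfur protein Uqcrfs1 stood at 115, 109 and 103 FPKM, and the hinge protein Uqcrh at 242, 264 and 283 FPKM. Of the other small subunits, Uqcrb stood at 277, 288 and 203 FPKM and Uqcr11 at 194, 223 and 209 FPKM.

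Complex IV, cytochrome c oxidase, held the highest single members: Cox7c stood at 768, 709 and 728 FPKM and Cox4i1 at 578, 758 and 781 FPKM. Cox6a1 (723, 699 and 668 FPKM), Cox8a (591, 494 and 491 FPKM) and Cox6c (413, 519 and 536 FPKM) followed. Cox7b was the exception among its ubiquitous subunits, at 44.4, 45.2 and 41.8 FPKM. Reads from Cox4i1 may be mixed with those of its neighbour Cox4nb, at 11.2, 12.5 and 11.9 FPKM, because their transcripts overlap on opposite strands and strand-aware counting was not stated.

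Complex V, the ATP synthase, had no low subunit, with its 15 ubiquitous subunits between 163 and 610.03 FPKM over all libraries. The epsilon subunit Atp5e stood at 490.2, 562 and 610.03 FPKM, the catalytic beta subunit Atp5b at 515, 439 and 487 FPKM and the alpha subunit Atp5a1 at 362, 339 and 377 FPKM. The c ring, which turns as protons pass, is encoded by Atp5g1, Atp5g2 and Atp5g3, which summed to 872, 731 and 846 FPKM. The 2 symbols that are not subunits, Atp5s (2.40, 3.28 and 3.30 FPKM) and Atp5sl (6.15, 5.05 and 5.88 FPKM), stood far lower.

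**Figure D1:**
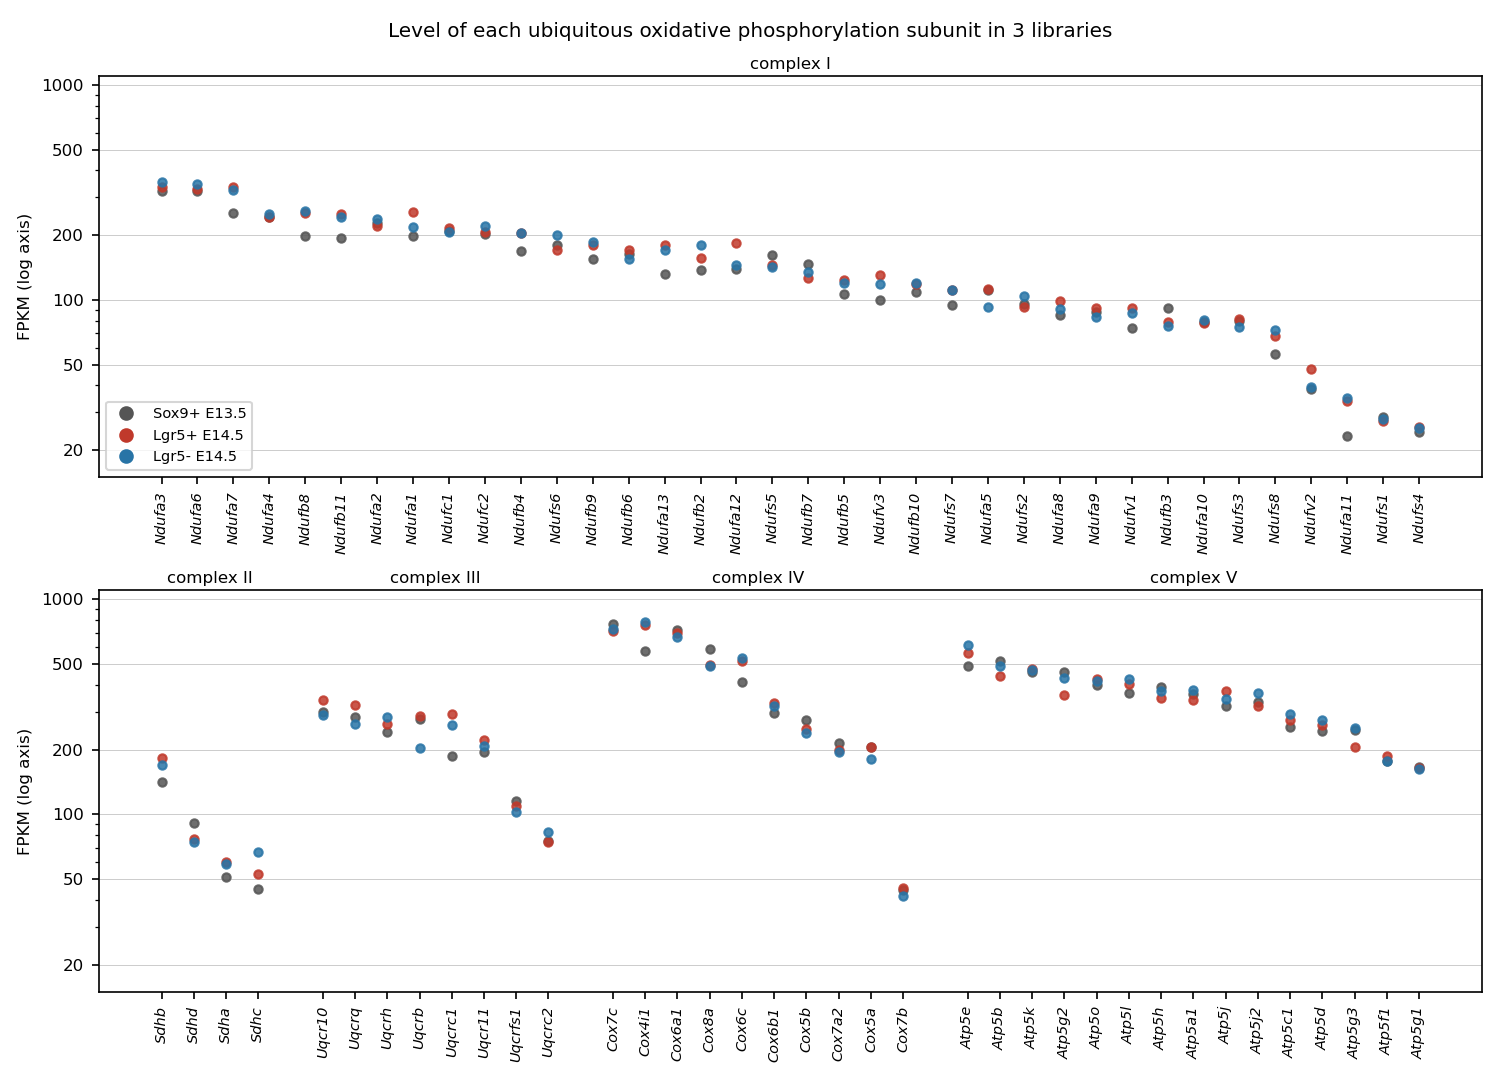
FPKM (log axis) of each of the 73 ubiquitous subunits in the Sox9+ (grey), Lgr5+ (red) and Lgr5- (blue) libraries, with 1 point per library, complex I above and complexes II to V below, ordered by mean level within a complex. The 3 points of a gene lie close together next to the distance between genes, and Cox7b, Ndufa11, Ndufs1, Ndufs4 and Ndufv2 are under 50 FPKM in each library.

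The ubiquitous subunits share features that the choice by name did not use. Their median transcript length was 651 bases in the GENCODE annotation of GRCm38, against 2146.5 bases for 12208 measured genes. Of the 73, 70 were shorter than that median. A gene's length was taken as the median over its protein-coding transcripts, short ones included. It can lie far under the longest transcript, as for Ndufs1 (651 and 2661 bases) and Uqcrc1 (533 and 1653 bases). Within the 73, shorter transcripts had higher levels (Spearman's rho -0.50, -0.52 and -0.49 across genes, as a description, since length also enters the FPKM). By that measure the core subunits of complex I had a median of 977 bases and the accessory subunits one of 625 bases. The group with the longer transcripts by that measure had the lower level there too, and lengths by the longest transcript were not compared. The 73 genes lie on 18 chromosomes. For 21 of them (28.8%) a protein-coding gene starts within 1000 bases on the opposite strand, pointing away, against 10.9% of 12210 measured genes. Examples are Sdhd with Timm8b, which encodes a chaperone of mitochondrial import, and Ndufs6 with Mrpl36, which encodes a mitochondrial ribosomal protein.

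Promoter windows from RefSeq (GRCm38.p6, 250 bases before to 50 after a start) were at hand for 69 of the 84 members, and for 62 ubiquitous subunits with 67 windows. They were searched on both strands for the site letters of nuclear respiratory factor 1 (NRF1, a known activator of respiratory chain genes), a motif of 10 letters with 1 free base, and for CCGGAAG (the ETS family, with GABP), AAGATGGC (YY1) and TATAAA. NRF1 letters were in 18 of the 67 windows (26.9%), against 9.74% of 12850 windows of genes at 1 FPKM or more and 4.60% of all 32851 windows. YY1 letters were in 14.9%, against 4.29% and 2.75%, and ETS letters in 23.9%, against 16.8% and 8.86%. TATAAA was in 8.96%, against 7.13% and 13.6%. No 2 matches of different motifs overlapped in a member's window. A match is a description of letters and no evidence of binding.

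The 250 bases before the start are printed here for 1 gene of each complex, the one with the most NRF1 and ETS matches there (ties by mean level, a choice made after the matches were seen), since these letters were more frequent in the subunits' windows than in all windows. Capitals mark the NRF1 and ETS letters, on either strand. All 5 genes lie on the minus strand, and each run ends at the base before the start. The windows are Ndufb4 at chr16:37654369-37654618, Sdha at chr13:74350241-74350490, Uqcrh at chr4:116075071-116075320, Cox6a1 at chr5:115348959-115349208 and Atp5h at chr11:115419920-115420169.
Ndufb4: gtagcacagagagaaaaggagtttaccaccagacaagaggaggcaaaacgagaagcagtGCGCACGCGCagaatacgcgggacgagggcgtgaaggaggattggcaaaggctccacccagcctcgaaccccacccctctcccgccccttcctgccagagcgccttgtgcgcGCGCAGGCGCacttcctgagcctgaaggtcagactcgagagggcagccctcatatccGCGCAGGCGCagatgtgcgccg
Sdha: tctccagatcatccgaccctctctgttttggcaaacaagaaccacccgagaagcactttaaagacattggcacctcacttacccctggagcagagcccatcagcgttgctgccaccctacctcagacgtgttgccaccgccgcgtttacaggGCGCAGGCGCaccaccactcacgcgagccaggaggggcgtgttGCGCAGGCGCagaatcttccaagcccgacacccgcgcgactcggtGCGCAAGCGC
Uqcrh: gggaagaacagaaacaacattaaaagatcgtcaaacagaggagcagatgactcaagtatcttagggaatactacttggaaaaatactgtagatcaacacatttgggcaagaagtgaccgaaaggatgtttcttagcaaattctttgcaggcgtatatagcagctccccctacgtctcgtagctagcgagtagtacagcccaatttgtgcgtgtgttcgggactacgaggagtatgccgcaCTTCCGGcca
Cox6a1: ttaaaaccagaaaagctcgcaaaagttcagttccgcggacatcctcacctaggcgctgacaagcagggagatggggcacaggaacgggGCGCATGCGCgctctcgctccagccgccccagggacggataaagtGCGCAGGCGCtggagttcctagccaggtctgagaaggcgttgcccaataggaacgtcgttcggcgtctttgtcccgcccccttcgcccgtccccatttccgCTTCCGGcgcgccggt
Atp5h: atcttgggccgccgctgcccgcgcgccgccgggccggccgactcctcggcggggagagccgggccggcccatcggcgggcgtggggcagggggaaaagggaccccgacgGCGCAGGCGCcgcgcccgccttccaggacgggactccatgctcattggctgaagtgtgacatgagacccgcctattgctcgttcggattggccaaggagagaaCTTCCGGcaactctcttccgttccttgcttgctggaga
Ndufb4, an accessory subunit of complex I at 168, 205 and 206 FPKM, has 3 NRF1 matches, which begin 191, 79 and 22 bases before the start. Sdha also has 3, at 98, 55 and 10 bases before the start. Uqcrh has no NRF1 match and 1 ETS match, 10 bases before the start. Cox6a1 has both motifs, NRF1 at 162 and 117 bases and ETS at 16 bases before the start, and Atp5h, a stalk subunit of complex V at 389, 349 and 374 FPKM, has NRF1 at 141 and ETS at 38 bases.

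Across the 3 libraries the subunits varied little. The highest level of a ubiquitous subunit divided by its lowest (both as FPKM + 1, as for all folds here) had a median of 1.16, against 1.36 over all 12754 genes measured at 1 FPKM or more in any library. This ratio was under 1.2 for 46 of the 73 (63.0%), against 23.6% of all those genes, and under 1.5 for 72 of the 73. The exception was Uqcrc1, at 1.56. Among all genes at 50 FPKM or more in any library, 25.3% stayed under 1.2. Level by level, as log2 of FPKM + 1, the 73 subunits correlated with Pearson's r of 0.991 for the Lgr5 pair. For Sox9+ cells with each of those 2 populations it was 0.983, across genes that are not independent replicates. Over 2043 genes at 50 FPKM or more in any library the same values were 0.869, 0.807 for Lgr5+ and 0.818 for Lgr5-. Those genes were chosen by their highest level, which can lower such correlations and the 25.3%, while the 73 were chosen by name. The 2 sets are therefore not matched.

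The first comparison set Lgr5+ against Lgr5- cells of the same digits, day and genotype. Of the 80 members that reached 1 FPKM in one library of the pair or both (called measured), 0 differed by 2-fold, where 3.64% of all 12438 such genes were 2-fold higher in the Lgr5+ library and 1.89% lower. At 1.5-fold the count was again 0, where 9.47% of all genes were higher and 5.96% lower. At 1.2-fold, a limit added after the values were seen, 6 members were higher and 2 lower, which is 10% of them, where 29.1% of all genes were higher and 17.0% lower (46.2% either way). The direction of these calls depended on the scaling: they were 1 higher and 11 lower with the upper quartile, 2 and 11 with quantile normalization, 1 and 8 without the 50 most abundant genes in the sum, and 3 and 6 by median of ratios, between 8.75 and 16.2% of members over all scalings. Among genes at 50 FPKM or more, 47.5% passed 1.2-fold either way and 8.70% of the 69 members at that level did. Among 666 genes at 50 FPKM or more with transcripts of up to 1000 bases, closer to the subunits in length, 38.0% passed. The members' median log2 ratio was 0.01, with a range of -0.33 to 0.50, and over all genes it was 0.08.

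Uqcrb had the largest difference of any measured member in this pair, 1.42-fold higher in the Lgr5+ than in the Lgr5- library. Its transcripts share 43.2% of their 50-base words with pseudogenes, so its level is uncertain, as is that of Ndufa12, at 139, 184 and 144.56 FPKM and 1.27-fold higher, with 26.2%. Sharing went further: 25 of the 73 ubiquitous subunits share over 10% of their words with transcripts of other genes of any type. Among these are Atp5l (84.8%), Atp5h (47.9%), Ndufb4 (37.0%), Cox5a (32.0%), Cox7c (27.9%) and Uqcrc2 (24.8%), whose levels are uncertain too. Uqcrq (1.23-fold), the accessory subunit Ndufa5 (111, 113 and 92.2 FPKM, 1.22-fold) and the core subunit Ndufv2 (38.3, 47.9 and 39.2 FPKM, 0.28 on the log2 scale) were higher too. Cox7a1, at 1.51, 1.10 and 0.70 FPKM, completed the 6 but lay near the minimum. On the other side Sdhc was 1.26-fold and Atp5g3 1.22-fold lower in the Lgr5+ library.

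By complex, over the ubiquitous subunits, the median log2 ratio of Lgr5+ over Lgr5- was 0.01 in complex I, 0.04 in complex II, 0.13 in complex III, 0.04 in complex IV and -0.08 in complex V. Complex V was the one whose median kept its sign under all 6 other scalings, at -0.21 to -0.05, while complex III turned to -0.01 under quantile normalization and the others turned under 4 or 5 scalings. All 5 subunits of the F1 head, which makes the ATP, were lower in the Lgr5+ library under each scaling. As deposited, 5026 of all 12438 measured genes were lower there, and 71 of 77 cytosolic ribosomal proteins. The direction was therefore not particular to the F1 head. Its 5 subunits were Atp5a1, Atp5b, Atp5c1 (254, 276 and 291 FPKM), Atp5d (243, 259 and 275 FPKM) and Atp5e, with a median of -0.12. In the c ring Atp5g2 and Atp5g3, at 460.1, 361 and 431 FPKM and 246, 206 and 253 FPKM, were lowest in the Lgr5+ library. These differences are small next to the interquartile range of all genes, which was 0.46 on the log2 scale.

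Other members named by the rule differed less. Ndufs6 (179, 171 and 199.8 FPKM) and Ndufb2 (137, 156 and 181 FPKM), accessory subunits of complex I, were both 1.16-fold lower in the Lgr5+ than in the Lgr5- library, and Uqcrc2 was 1.11-fold lower. Cox5a, at 207, 205 and 180.3 FPKM, was 1.14-fold higher, and the stalk subunits Atp5j (320.3, 373 and 346 FPKM) and Atp5f1 (177, 186 and 177 FPKM) were 1.08-fold and 1.05-fold higher, directions that turned under other scalings. Cox7a2l, which is not a subunit, was 1.07-fold lower. Between these libraries all 11 measured muscle markers were 2-fold or more higher in the Lgr5+ library and 7 of 7 measured red cell markers were 2-fold or more lower. Epidermis markers were 2-fold or more higher in the Lgr5+ library for 4 of 6 and macrophage markers for 3 of 6, and the part of any of these in the members' differences was not tested.

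**Figure D2:**
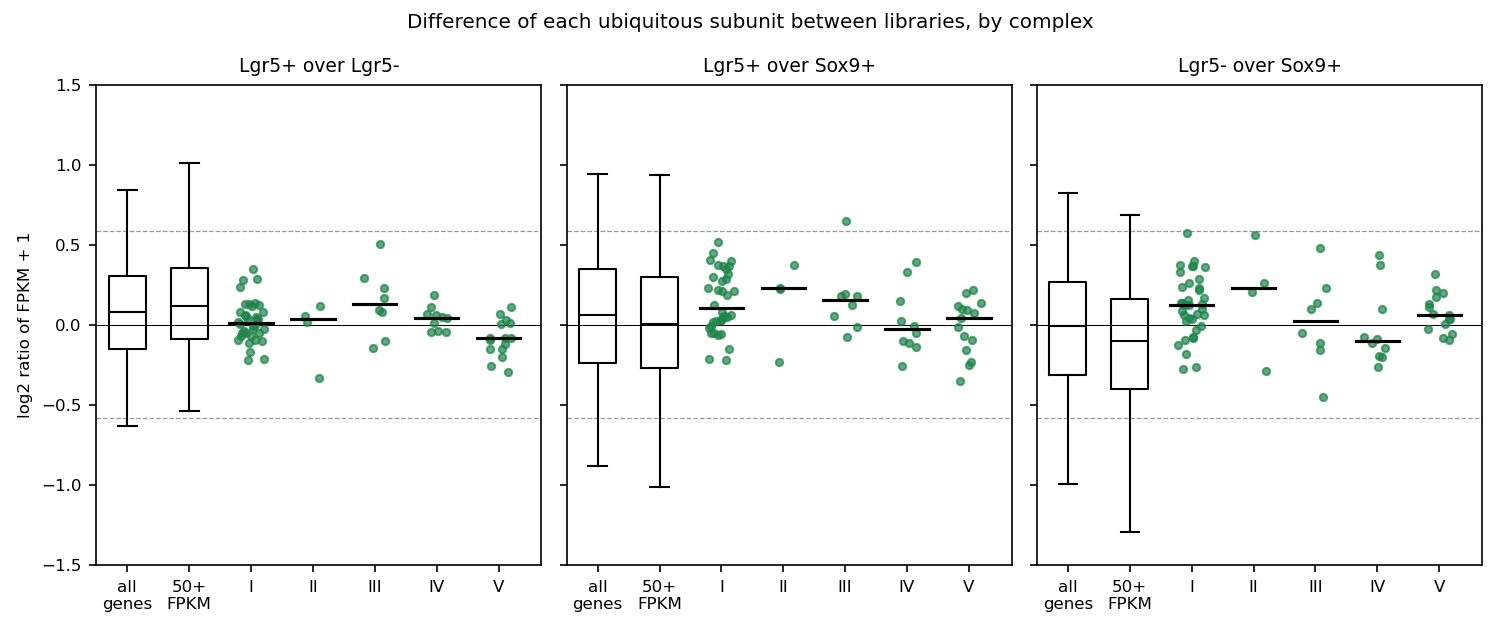
Log2 ratio of FPKM + 1 in the 3 pairs of libraries, with 1 green point per ubiquitous subunit, the median of each complex as a black bar, and boxes (quartiles, with whiskers from the 5th to the 95th percentile) for all measured genes and for those at 50 FPKM or more. Dashed lines mark 1.5-fold, and the single point beyond them is Uqcrc1 in the Lgr5+ over Sox9+ panel.

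The second comparison set the Lgr5+ cells against the earlier Sox9+ digit cells. No member differed by 2-fold, where 4.33% of 12492 measured genes were higher and 3.96% lower. At 1.5-fold 1 of 80 was higher and 0 lower, where 12.6% of all genes were higher and 9.9% lower. That member was Uqcrc1 (chr9:108936633-108949623, plus strand), 1.56-fold higher in the Lgr5+ library, and it fell short of 1.5-fold when scaled by the median of ratios (0.57 on the log2 scale). At 1.2-fold 17 were higher and 1 lower, 22.5% of the members, where 31.9% of all genes were higher and 23.1% lower (55.0% either way). The split depended on the scaling: it was 13 higher and 9 lower with the upper quartile, 12 and 9 by median of ratios, and 35 and 0 as TPM (43.8% of members, against 63.2% of all genes). Among genes at 50 FPKM or more, 53.4% passed 1.2-fold either way and 21.7% of the 69 members at that level did. The median log2 ratio was 0.06 for the members and 0.06 for all genes.

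Of the 17, 12 belonged to complex I, which is 33.3% of its 36 members and close to the 31.9% of all genes that were higher. After Uqcrc1, the largest were Ndufa11 (23.3, 33.8 and 35.1 FPKM, 1.43-fold), a subunit of the membrane arm, and Ndufa13 (132, 180.3 and 171 FPKM, 1.36-fold), also called GRIM-19. The Ndufa13 level is uncertain, because 27.1% of its 50-base words are shared with the neighbouring gene Tssk6. The core subunits Ndufs8 (55.7, 67.6 and 72.2 FPKM), Ndufv1 (74.3, 91.6 and 86.6 FPKM) and Ndufv2 were among the 12. Outside complex I, Cox4i1 was 1.31-fold, Sdhb 1.29-fold, Cox6c 1.26-fold and Atp5s 1.26-fold higher. The member past 1.2-fold on the lower side was Atp5g2, at 1.28-fold lower in the Lgr5+ library.

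Over the ubiquitous subunits, the complex medians of Lgr5+ over Sox9+ were 0.10 in complex I, 0.23 in II, 0.15 in III, -0.03 in IV and 0.04 in V. With isoforms and other symbols included, the 15 measured members of complex IV had a median of 0.02. In complex I 27 of the 36 subunits were above 0, as were 6943 of all 12492 measured genes. Under the other scalings that count ran from 19 to 34 and the median from 0.03 to 0.26. Complexes II and III kept their sign as well, while complex IV turned positive under 4 of 6 scalings and complex V negative under 2. In complex IV Cox8a was 1.19-fold lower beside the higher Cox4i1 and Cox6c, so subunits of the same enzyme differed in direction. Ndufb7 (146, 126 and 134 FPKM) and Ndufb3 (91.9, 79.1 and 75.8 FPKM) were each 1.16-fold lower, the most in complex I, and Sdhd was 1.18-fold lower, opposite to the other 3 subunits of complex II. Uqcr11 was 1.14-fold and Atp5j 1.16-fold higher. Muscle markers were 2-fold or more higher in the Lgr5+ library for 9 of 12 measured and macrophage markers for 5 of 6, and their part was not tested.

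The third comparison set the Lgr5- cells against the same Sox9+ library, so it shares that library with the second. No member differed by 2-fold, where 3.08% of 12482 measured genes were higher and 4.94% lower, and none by 1.5-fold, where 9.5% were higher and 12.8% lower. At 1.2-fold 14 were higher and 6 lower, which is 25% of the members, where 25.5% of all genes were higher and 28.4% lower (53.8% either way). Under quantile normalization 39 were higher and 2 lower, 51.2% of members against 54.5% of all genes, and as TPM or without the 50 most abundant genes 26 were higher and 2 lower (35% of members). The median was 0.09 for the members and -0.01 for all genes. Genes at 50 FPKM or more had a median of -0.10, and 52.3% of them passed 1.2-fold either way, against 24.6% of the 69 members at that level.

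Ndufa11 was 1.49-fold, Sdhc 1.47-fold, Uqcrc1 1.39-fold and Cox4i1 1.35-fold higher in the Lgr5- than in the Sox9+ library. Ndufb2 (1.32-fold), Cox6c (0.37 on the log2 scale), Atp5s (1.26-fold) and Atp5e (1.24-fold) were higher too. On the lower side stood Cox7a1 (1.48-fold, near the minimum), Uqcrb (1.37-fold), Sdhd (1.22-fold), Ndufb3 (1.21-fold), Cox8a (-0.27 on the log2 scale) and Ndufa5 (-0.27). Uqcrh was 1.17-fold higher and Uqcrfs1 1.11-fold lower, and in complex V the most that any member was lower was 1.07-fold, for Atp5g2, then 1.06-fold for Atp5b, both directions that turned under other scalings. Over the ubiquitous subunits the medians were 0.12 in complex I, 0.23 in II, 0.02 in III and 0.06 in V, each positive under every scaling, and -0.10 in complex IV, which turned positive under 4 of 6. Red cell markers, whose cells lose their mitochondria as they mature, were 2-fold or more higher in the Lgr5- library for 6 of 7 measured, and their part was not tested.

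Read over all 3 libraries, the Sox9+ library held the lowest level for 39 of the 73 ubiquitous subunits (53.4%, against 39.4% of all measured genes) and the highest for 16 (21.9%, against 34.3%). It was lowest for 22 of 36 in complex I and 3 of 4 in complex II, but for 3 of 10 in complex IV, where it was highest for 6. In complex IV this order did not hold as TPM (lowest for 6, highest for 1), without Rn45s and haemoglobin genes (5 and 3), or under quantile normalization and the sum that leaves out the 50 most abundant genes (4 and 3 in both). Under the other scalings the count of 39 ran from 35 to 58, and the share of all genes from 37.1 to 51.3%. Ndufa11, Ndufa7 (253, 334 and 325 FPKM), Ndufb8 (199, 254 and 258 FPKM), Cox4i1 and Uqcrc1 show this order, with the Lgr5+ and Lgr5- values close to each other and the Sox9+ value apart. Cox8a, Sdhd and Ndufb3 show the reverse.

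Tissue isoforms of complex IV added little. The muscle and heart isoforms Cox6a2 (0.16, 0.35 and 0 FPKM) and Cox8b (0.45, 0.32 and 0 FPKM) and the isoforms Cox7b2 (0, 0 and 0.10 FPKM) and Cox8c (0, 0 and 0 FPKM), both known from testis, were under 1 FPKM in every library. Cox7a1, the muscle isoform of the Cox7a family, took 0.48, 0.36 and 0.23% of that family, in which Cox7a2l was counted by its name. No muscle isoform was above 1.51 FPKM in any library, while the muscle markers summed to 125 FPKM in the Lgr5+ library. Cox6b2, a testis-enriched isoform, was present at 27.6, 28.1 and 29.0 FPKM, which was 8.50, 7.85 and 8.34% of the Cox6b family beside Cox6b1 at 297, 329.6 and 319 FPKM. Cox4i2, which replaces Cox4i1 under low oxygen and in lung, stood at 14.2, 14.3 and 15.3 FPKM, or 2.39, 1.86 and 1.92% of the Cox4 family.

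Within families that share a role, the shares were similar in the 3 libraries, apart from Ndufa4l2. Cox7a2, the ubiquitous partner of Cox7a1, stood at 215, 200.1 and 194 FPKM. Cox7a2l, counted in that family by its name though not a subunit, stood at 102, 103 and 109.8 FPKM. Atp5g2 supplied the largest part of the c ring messages, 52.8, 49.3 and 50.9%, ahead of Atp5g3 with 28.2, 28.2 and 29.9% and Atp5g1 (166, 164 and 163 FPKM) with 19.0, 22.4 and 19.2%. Ndufa4l2, a paralog of Ndufa4 that low oxygen is known to induce, is outside the rule and stood at 14.1, 3.35 and 2.13 FPKM. It took 5.47% of the Ndufa4 family in Sox9+ cells, 1.36% in Lgr5+ cells and 0.84% in Lgr5- cells, and its log2 ratio to the Sox9+ library was -1.80 in Lgr5+ and -2.27 in Lgr5- cells. Ndufa4 itself differed by less than 0.1 on the log2 scale in each comparison.

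**Figure D3:**
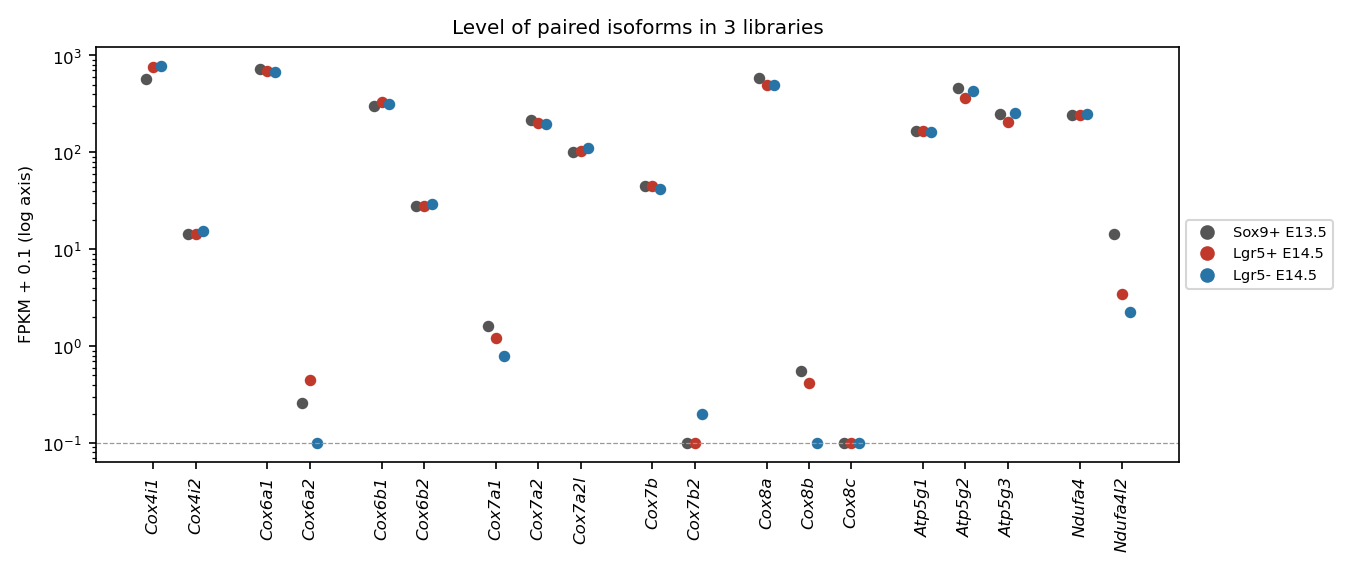
FPKM + 0.1 (log axis) of the members of each isoform family in the Sox9+ (grey), Lgr5+ (red) and Lgr5- (blue) libraries, with 1 point per library and the dashed line marking genes listed at 0. The tissue isoforms lie far under their ubiquitous partners in all 3 libraries, and Ndufa4l2 is highest in the Sox9+ library, at 14.1, 3.35 and 2.13 FPKM.

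Of the subunits and carriers that the names missed, 5 were measured. The complex V subunit Usmg5 stood at 608, 664 and 556 FPKM, cytochrome c1 (Cyc1) at 104, 119 and 117 FPKM, the acyl carrier subunit Ndufab1 at 96.1, 116 and 87.0 FPKM and cytochrome c (Cycs) at 29.9, 33.3 and 24.2 FPKM, and the testis cytochrome Cyct was listed at 0. The ATP synthase subunit gene 2010107E04Rik stood at 217, 202 and 249.9 FPKM. Between the Lgr5 libraries 3 of the 5 passed 1.2-fold, against 10% of the members and 46.2% of all genes, and the largest was Cycs, 1.36-fold higher in Lgr5+ cells. None of the 5 passed 1.5-fold in any comparison, where 15.4 to 22.5% of all genes did. The ATP synthase inhibitor Atpif1 stood at 407, 446 and 466 FPKM.

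Assembly factors, which include chaperones and cofactor carriers, mostly differed by less than 1.5-fold, as did most measured genes. Of 15 factors for complex I, 0 passed 1.5-fold between the Lgr5 libraries, where 15.4% of all genes did, and 33.3% passed 1.2-fold. Against the Sox9+ library 1 passed 1.5-fold in each comparison, where 22.5 and 22.3% of all genes did: Ndufaf3 (9.44, 19.3 and 14.51 FPKM) was higher in Lgr5+ cells, with a log2 ratio of 0.96, and Ndufaf4 (5.57, 3.91 and 3.12 FPKM) was 1.59-fold lower in Lgr5- cells. Of 6 for complex III, 0 passed 1.5-fold between the Lgr5 libraries and 1 (16.7%) did in each comparison with the Sox9+ library. It was AI462493, the symbol used here for Uqcc3, lowest in the Sox9+ library at 12.3, 27.4 and 25.1 FPKM. It was 2.14-fold higher in Lgr5+ and 1.96-fold higher in Lgr5- cells. Of 23 for complex IV, 0 passed 1.5-fold between the Lgr5 libraries. In Lgr5+ over Sox9+ 4 did (17.4%, against 22.5% of all genes), and in Lgr5- over Sox9+ 1 did (4.35%, against 22.3%). At 1.2-fold 52.2% passed in Lgr5+ over Sox9+, close to the 55.0% of all genes. Gm20571, matched to Pet117, was listed at 0, 1.77 and 2.27 FPKM, and Chchd8 (4.83, 2.36 and 3.14 FPKM) was lowest in the Lgr5+ library. The 4 factors for complex II had medians between -0.03 and 0.14.

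Of 18 regulators of mitochondrial biogenesis and transcription, 13 were measured in each comparison. The coactivators Ppargc1a and Ppargc1b stood under 1 FPKM in all 3 libraries, at 0.73, 0.49 and 0.72 FPKM and 0.90, 0.47 and 0.66 FPKM. Nrf1, the gene for the factor whose site letters were searched above, stood at 21.6, 22.4 and 24.0 FPKM, and Tfam, which packs mitochondrial DNA, at 8.53, 6.30 and 7.40 FPKM. Gabpb1, a subunit of GABP, was highest in the Lgr5+ library at 30.9, 50.7 and 29.9 FPKM, with a log2 ratio of 0.74 over Lgr5- cells. Myc, a broad growth regulator, differed most, at 172, 55.7 and 29.3 FPKM, and its log2 ratio to the Sox9+ library was -1.61 in Lgr5+ and -2.51 in Lgr5- cells. As a list, 2 of the 13 (15.4%) passed 1.5-fold in each comparison. The shares of all genes were 15.4% in Lgr5+ over Lgr5-, 22.5% in Lgr5+ over Sox9+ and 22.3% in Lgr5- over Sox9+. Of the 80 measured members 0, 1 and 0 passed in the same order.

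Glycolysis differed more than the subunits, in a list that also holds the transporters Slc2a1, Slc16a1 and Slc16a3 and the kinase Pdk1. Between the Lgr5 libraries 10 of 20 glycolytic genes were 1.5-fold or more higher in Lgr5+ cells and 0 lower, with a median log2 ratio of 0.59, against 0 of 80 members and 9.47% of all genes. The muscle and epidermis markers that were higher and the red cell markers that were lower in the same pair moved with it, and their part was not tested. The lactate exporter Slc16a3, at 51.4, 40.9 and 18.04 FPKM, was the 1 past 2-fold, and aldolase Aldoa stood at 496, 555 and 281 FPKM and lactate dehydrogenase Ldha at 832, 778 and 462 FPKM. In the Lgr5- over Sox9+ comparison 13 of the 20 were 1.5-fold or more lower, with a median of -0.70, where 12.8% of all genes were lower, beside the 6 of 7 red cell markers that were higher, whose part was not tested. Slc16a3, the hexokinase Hk2 (13.46, 9.58 and 5.43 FPKM) and the phosphoglycerate kinase Pgk1 (374, 294 and 175 FPKM) were past 2-fold there. Both medians kept their sign under all 6 other scalings. For Lgr5+ over Sox9+ the median was -0.05, and it turned positive under 2 scalings.

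Enzymes of the TCA cycle and of pyruvate dehydrogenase (Pdha1, Pdhb, Dlat and Pdhx), which feed electrons to complexes I and II, were closer to the subunits. Their medians over 18 genes were 0.08, 0.13 and 0.03 in the 3 comparisons. The 0.08 (Lgr5+ over Lgr5-) turned negative under 3 scalings. None of the 18 passed 2-fold. The pyruvate dehydrogenase subunit Pdhx (6.85, 10.8 and 8.55 FPKM) was the 1 that passed 1.5-fold in Lgr5+ over Sox9+. Mitochondrial ribosomal proteins, which translate the subunits encoded by mitochondrial DNA, had medians of 0.13, 0.09 and -0.03 over 73 genes, of which -0.03 (Lgr5- over Sox9+) turned positive under 5 scalings. Their largest differences were Mrpl44 (16.2, 18.4 and 9.61 FPKM), with a log2 ratio of 0.87 in Lgr5+ over Lgr5-, and Mrpl16 (21.7, 13.9 and 12.1 FPKM), at -0.79 in Lgr5- over Sox9+. Cytosolic ribosomal proteins had a median of -0.26 in Lgr5+ over Lgr5- (77 genes) and -0.31 in Lgr5+ over Sox9+ (78 genes), negative under every scaling. In Lgr5- over Sox9+ their median was -0.01, which turned positive under all 6 other scalings, and 3 of 78 (3.85%) passed 1.2-fold, against 25% of the oxidative phosphorylation members. Mitochondrial ribosomal proteins passed 1.2-fold for 21.9% there and for 19.2% in Lgr5+ over Sox9+, against 22.5% of the members, so small differences were not particular to the members in either comparison. Rpl30, at 128, 67.7 and 61.1 FPKM, was the 1 cytosolic ribosomal gene past 2-fold in Lgr5- over Sox9+.

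**Figure D4:**
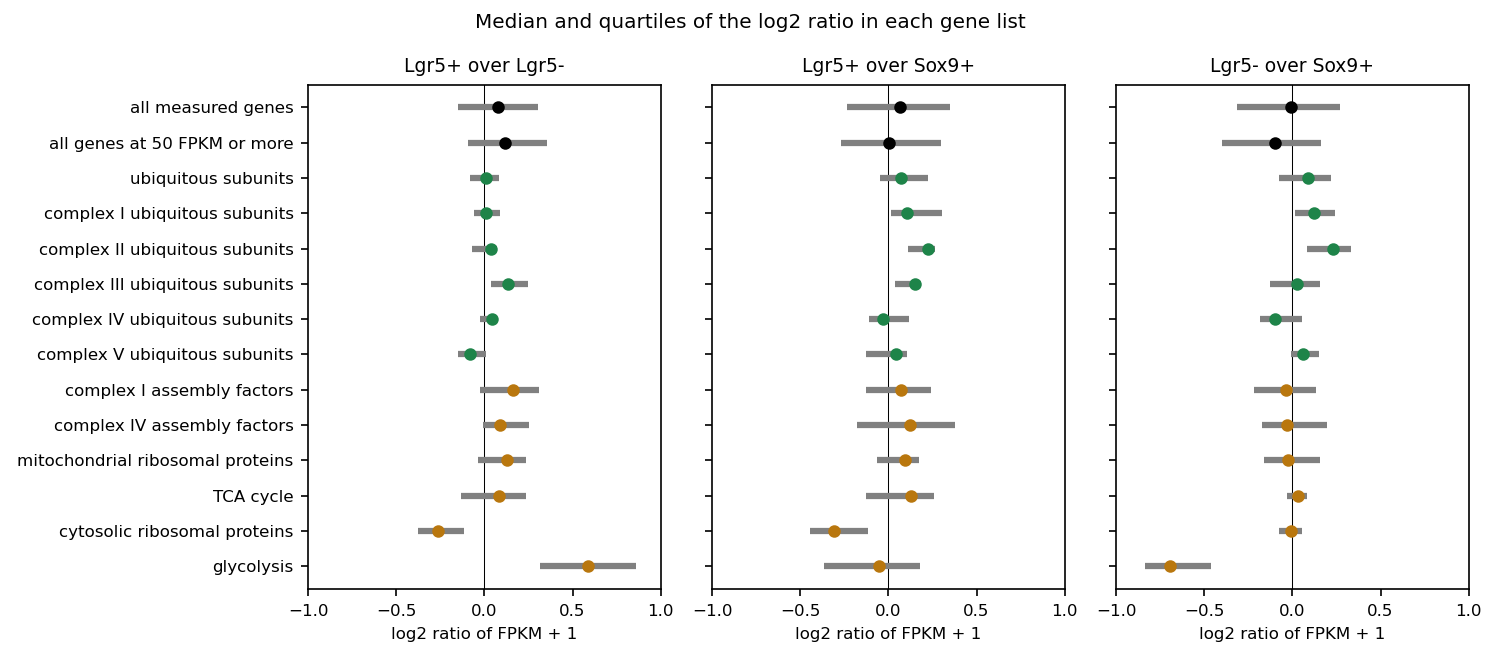
Median (point) and quartiles (bar) of the log2 ratio of FPKM + 1 in each gene list for the 3 pairs of libraries, with all genes in black, oxidative phosphorylation subunits in green and other lists in orange. The medians of the complexes lie between -0.10 and 0.23, with signs that turn under other scalings in complexes I to IV for Lgr5+ over Lgr5-, IV and V for Lgr5+ over Sox9+ and IV for Lgr5- over Sox9+, while glycolysis has a median of 0.59 in Lgr5+ over Lgr5- and -0.70 in Lgr5- over Sox9+.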

How the data were processed

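RNA-seq was run on 3 libraries, with 10 ng of RNA as input, per the labels' protocols. The authors deposited 1 FPKM value per gene symbol and library. Per the submitters' processing notes, HISAT2 and mm10 (GRCm38) were used. For the FPKM tool, its annotation, strand-aware counting and multi-mapping reads, the method is not given in the sources used here. FPKM holds no counts, so depth is unknown. No mitochondrially encoded symbol was listed (0), and 25 symbols had become dates.

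From the deposited values, log2 ratios of FPKM + 1 were computed in 3 pairs of libraries with Python 3.11.15, numpy 2.4.6 and pandas 2.3.3. The 2-fold calls were checked on simulated libraries with set folds and no noise, which tests the arithmetic alone. The 1.5-fold and 1.2-fold calls were not checked that way. A fold is the ratio of FPKM + 1, which understates differences of low genes. A gene counted as measured at 1 FPKM or more in the higher library, and 4 members (Cox6a2, Cox7b2, Cox8b and Cox8c) never were. Calls were made at 2-fold and 1.5-fold, and at 1.2-fold as a limit added later. With 1 library per group there is no test. Named were, per complex, the 2 highest members and the lowest, the 2 largest differences in each direction in each comparison, all isoform pairs, members under 1 FPKM throughout, and some further members chosen after their values were seen. In the other lists, genes past 2-fold and a selection of the largest differences were named. The members and lists were chosen with earlier results of these data known. Listed genes under older symbols were matched through RefSeq synonyms (21 genes). Transcript lengths, gene positions and 50-base words shared with pseudogenes came from GENCODE's GRCm38 annotation, and all 84 members matched. Protein sequences were not used here, and 1 red cell marker is not reported here.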

Additional observations from a re-analysis of the deposited data

How the results depend on the processing

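No paired analysis was possible because each group is 1 library, and for the same reason no library could be left out. Depth limits could not be given without counts. The members' median stayed within 0.1 (log2) of the value given, except as follows, and the cause was not tested. For Lgr5+ over Lgr5- (0.01) it was -0.12 with upper quartile scaling and -0.11 with quantile normalization. For Lgr5+ over Sox9+ (0.06) it was 0.21 as TPM, where the median of all genes was 0.21 too. For Lgr5- over Sox9+ (0.09) it was 0.20 as TPM, 0.21 without the 50 most abundant genes of any library in the sum, 0.24 with quantile normalization and 0.21 without Rn45s and the haemoglobin genes, an alternative added after seeing the data. Less the median of all genes, the members stood at -0.07 in Lgr5+ over Lgr5- and 0.09 in Lgr5- over Sox9+ as deposited. The count of members 1.5-fold higher in Lgr5+ over Sox9+ (1) was 3 as TPM, 0 by median of ratios and 2 without Rn45s and haemoglobin genes. For Lgr5- over Sox9+ (0 higher, 0 lower) 3 were higher as TPM, without the 50 most abundant genes, with quantile normalization and without Rn45s and haemoglobin genes, 2 with the upper quartile and 1 (Ndufa11) with a pseudocount of 0.1, and 1 (Cox7a1) was lower as TPM. With a pseudocount of 0.1, Cox7a1 was also 1 of 1 past 1.5-fold higher in Lgr5+ over Lgr5- and 1 of 1 past 2-fold lower in Lgr5- over Sox9+. The share of summed FPKM was 4.001, 4.298 and 4.611% without the 50 most abundant genes, and 3.43% in the Lgr5- library without Rn45s and haemoglobin genes. Of 2391 values of single members, 1851 moved by less than 0.1 and 540 by more. The 1851 include settings that changed only the minimum, which cannot move a single member's ratio. Reversal of a call was counted only for differences past 1.5-fold as deposited. Uqcrc1 in Lgr5+ over Sox9+ was the 1 member value past that limit, so the count of 0 says little. Smaller differences turned in sign under other scalings for many members. Leaving out the 8 members that share over 20% of their words with pseudogenes, also added after seeing the data, moved none of the members' medians or their 2-fold and 1.5-fold counts.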
